A study of Mus musculus with 9 samples.

Results

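Csf1r, Cd14, Adgre1, Cybb, Mpeg1, F13a1 and Lyz2 are genes that monocytes and macrophages use, and they were followed here in mouse MLL-AF9 leukemia cells in which the reprogramming factors Oct4, Sox2, Klf4 and c-Myc (OSKM) had been switched on. For each gene the probe set was taken that the platform annotation ties to that gene symbol and to no other; each of the 7 genes had 1 such probe set, out of 22180 genes with a probe set of their own and 41345 probe sets on the array. After 48 h of doxycycline (Dox), Csf1r, Cd14, Cybb and Lyz2 were higher than in control cells, by 1.71- to 2.05-fold. After 72 h, Csf1r, Lyz2 and Mpeg1 were higher, by 1.92- to 3.05-fold, and Cd14 was lower than at 48 h. Only the calls of Csf1r and, at 72 h, of Mpeg1 held whichever single array was left out. The 72 h call of Lyz2 held in 2 of 9 such fits and that of Cd14 between the times in 1. F13a1 had lower values on every Dox array than on every control array but missed the threshold, and Adgre1 did not pass it in any comparison.

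The leukemia cells carried the MLL-AF9 fusion, marked by green fluorescent protein (GFP), together with OSKM under a tetO promoter that Dox switches on, and grew in recipient mice. Cells were sorted from spleen in 3 groups of 3 samples, namely 48 h of Dox, 72 h of Dox and control without Dox. RNA of each sample was hybridised to 1 Affymetrix Mouse Gene 2.0 ST array, which reads out transcripts with probes along the whole gene. The control mice received no Dox, so that the drug and the factors cannot be told apart The replicates are called biological in the labels, which do not tie them to separate mice, and p-values therefore reflect the spread of these samples, which may be partly technical. Because each array measured a sorted population as a whole, fewer cells of a type and less RNA per cell cannot be told apart either.

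Monocytes arise in the marrow from granulocyte-monocyte progenitors, leave it through the blood and can become macrophages in tissues. Csf1r, the receptor of macrophage colony-stimulating factor (M-CSF) and of interleukin-34, carries the survival and differentiation signal of this lineage, while the transcription factor PU.1 and the C/EBP factors switch on much of its gene program. MLL-AF9 is a fusion oncoprotein that holds myeloid progenitors in an immature state with a granulocyte-monocyte character. Cd14, Cybb, Mpeg1, Adgre1, F13a1 and Lyz2 belong to the equipment of the mature cells, from bacterial sensing to killing and digestion.

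The promoters of the members are shown because PU.1 and the C/EBP factors act on many myeloid promoters, and a reader may want to see which letters stand at these starts. RefSeq promoter sequence (GRCm38.p6) was matched for 4 of the 7 genes, and the windows hold 250 bases before and 30 bases after the annotated start of transcription, written 5′ to 3′ on the gene's own strand. Capitals mark the PU.1 core GAGGAA, which reads TTCCTC where it lies on the other strand.
Lyz2, chr10:117282243-117282522, minus strand: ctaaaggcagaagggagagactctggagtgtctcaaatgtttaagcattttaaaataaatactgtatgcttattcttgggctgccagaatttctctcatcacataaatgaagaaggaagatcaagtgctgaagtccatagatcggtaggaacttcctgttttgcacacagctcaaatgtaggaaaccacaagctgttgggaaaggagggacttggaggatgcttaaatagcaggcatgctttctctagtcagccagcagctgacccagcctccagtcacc
Mpeg1, chr19:12460520-12460799, plus strand: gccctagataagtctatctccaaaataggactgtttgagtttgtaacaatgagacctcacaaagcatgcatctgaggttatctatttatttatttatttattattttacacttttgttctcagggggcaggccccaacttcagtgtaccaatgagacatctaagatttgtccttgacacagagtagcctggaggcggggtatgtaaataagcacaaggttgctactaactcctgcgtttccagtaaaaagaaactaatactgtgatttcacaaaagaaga
Cybb, chrX:9469295-9469574, minus strand: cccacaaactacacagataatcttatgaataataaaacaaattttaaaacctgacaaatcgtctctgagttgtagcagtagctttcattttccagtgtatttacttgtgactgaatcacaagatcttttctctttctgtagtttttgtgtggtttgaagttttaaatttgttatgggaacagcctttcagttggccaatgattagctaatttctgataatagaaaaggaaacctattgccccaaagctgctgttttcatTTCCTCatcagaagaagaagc
F13a1, chr13:37050215-37050494, minus strand: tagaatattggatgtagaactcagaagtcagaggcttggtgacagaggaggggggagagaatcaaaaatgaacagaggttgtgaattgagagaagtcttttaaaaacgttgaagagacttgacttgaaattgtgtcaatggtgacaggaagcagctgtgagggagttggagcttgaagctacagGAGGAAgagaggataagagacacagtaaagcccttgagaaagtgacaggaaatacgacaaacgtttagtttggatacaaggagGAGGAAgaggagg
Searched on both strands, GAGGAA stood once in the Cybb window, from base 10 with the start of transcription as base 1, and at 2 places in the F13a1 window, from 66 bases before the start and from base 18. A second annotated start of F13a1, at chr13:37049184-37049463 on the minus strand, had 1 match, from base 15. The windows of Lyz2 and Mpeg1 held none, which says only that these letters are not there. Of 32851 mouse promoter windows of the same length, 26.0% held GAGGAA. The C/EBP letters TTGCNNAA were in none of these windows and in 10.4% of all windows. CCACCC, the core letters bound by Klf factors, was found at 2 places in the second F13a1 window, 236 and 50 bases before the start, and in 30.2% of all windows. The Cybb start of this table lies inside the annotated gene. A match is a description of sequence, and no binding was measured here.

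Expression is given as log2 signal, so that a difference of 1 is a doubling, and differences are group means subtracted on this scale. A gene was called changed where the Benjamini-Hochberg adjusted p of limma, fitted over all 41345 probe sets, was below 0.05. Both Dox groups were set against the same 3 control arrays. As a check on the labels, Klf4, one of the 4 factors and also a gene of monocytes, had log2 signals of 7.92, 7.88 and 7.74 after 48 h of Dox, against 4.73, 5.13 and 4.63 in control. After 72 h its values were 6.80, 6.89 and 6.71. The probe set may read the gene of the cell and that of the cassette alike. Every Dox array lay above every control array, with differences of 3.02 at 48 h (adjusted p = 3.1e-05, limma) and 1.97 at 72 h (adjusted p = 0.000827, limma).

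Of the 7 members, 4 were called higher after 48 h, where 1.12% of all probe sets were called higher. None was called lower, against 0.481% of all probe sets. The members lay between the 79.9 and 99.1 percentile of mean signal and were chosen with earlier results of these data known. With probe sets of below-median signal left out of the fit, 578 of 20673 were called higher at 48 h. In all 7 genes the values of the 3 Dox 48 h arrays did not overlap those of the 3 control arrays, which was true of 15.4% of all probe sets. After 72 h, 3 members were called higher and 0 lower, beside 1.16% and 1.33% of all probe sets, and 4 members did not overlap with control, beside 20.7%. Between the 2 time points 0 members were called higher and 1 lower at 72 h, beside 0.00726% and 0.208%, and the values of 4 members did not overlap, beside 15.3%. A test over all 3 groups (limma F test) called 5 of 7 members, all but Adgre1 and F13a1, beside 2.24% of all probe sets. Among all probe sets called at 72 h, 46.6% were higher, and 61.4% were higher when each array was centred on its median. The median difference of the members was 0.82 at 48 h, 0.27 at 72 h and -0.10 between 72 h and 48 h, beside medians of -0.015, -0.008 and 0.002 over all probe sets.

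**Figure D1:**
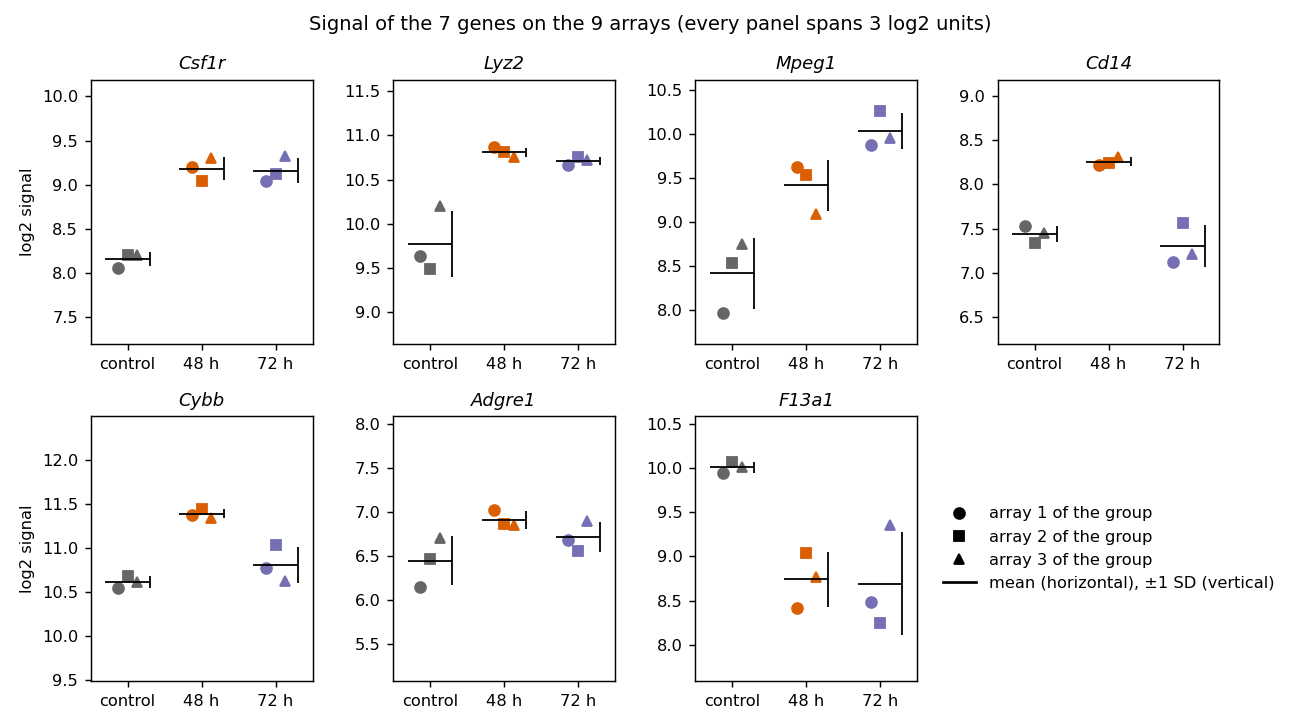
Log2 signal of each of the 7 genes (vertical axis, 3 log2 units in every panel) on the 3 control, 3 Dox 48 h and 3 Dox 72 h arrays. Points are arrays, horizontal lines are group means and vertical lines 1 SD on either side. Csf1r and Lyz2 lie higher at both times, Mpeg1 is highest at 72 h, Cd14 and Cybb are highest at 48 h, and F13a1 lies below control at both times.

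Csf1r (RefSeq gene at chr18:61105572-61131139) is the receptor tyrosine kinase for M-CSF and an early sign of the monocyte path. Its log2 signal was 9.20, 9.04 and 9.30 after 48 h of Dox, against 8.06, 8.20 and 8.20 in control. After 72 h it was 9.04, 9.12 and 9.32. The 6 Dox arrays all lay above the 3 control arrays, and the ranges of the 2 Dox groups overlapped. The group means were 9.18 ± 0.133 at 48 h, 9.16 ± 0.144 at 72 h and 8.16 ± 0.0801 in control (SD, n = 3 each). Relative to control the difference was 1.02 at 48 h (SE 0.101, 2.03-fold, adjusted p = 0.00279, limma) and 1.0 at 72 h (SE 0.101, 2.0-fold, adjusted p = 0.0046, limma). Between 72 h and 48 h it was -0.02, with a 95% interval from -0.25 to 0.21. These calls at 48 h and at 72 h stayed past the threshold whichever single array was left out, with adjusted p from 0.00343 to 0.0173 and from 0.00901 to 0.0233.

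The list of ligands and receptors of the related growth factors had 9 measured genes other than Csf1r. These were Csf1, Il34, Csf2, Csf3, Csf2ra, Csf2rb, Csf2rb2, Csf3r and the interleukin-3 receptor chain Il3ra, and 0 were called higher at either time. Csf3r, the receptor of granulocyte colony-stimulating factor, fell by 0.65 at 48 h (adjusted p = 0.0282, limma), with log2 signals of 8.21, 8.0 and 8.06 after 48 h of Dox, against 8.59, 8.68 and 8.95 in control. Its difference at 72 h was -0.49 (adjusted p = 0.0628). The 48 h call of Csf3r was lost without control replicate 2 (adjusted p = 0.0879) or 3 (0.0611), Dox 48 h replicate 1 (0.0547), 2 (0.111) or 3 (0.107) or Dox 72 h replicate 1 (0.0549). Csf1, the main ligand of Csf1r, had differences of -0.10 at 48 h and 0.44 at 72 h (adjusted p = 0.945 and 0.382), and Csf2rb, the shared beta chain of the GM-CSF receptor, had -0.13 and -0.40 (adjusted p = 0.796 and 0.107). The median of the list was -0.03 at 48 h and -0.14 at 72 h.

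Lyz2 (chr10:117277541-117282272, minus strand) encodes the lysozyme of macrophages and neutrophils, an enzyme that cuts bacterial cell walls. Log2 signals were 10.87, 10.81 and 10.76 after 48 h of Dox, against 9.63, 9.49 and 10.20 in control. After 72 h they were 10.66, 10.76 and 10.72. All 6 Dox arrays were above all 3 control arrays and lay close together, while control replicate 3 was well above the other two controls. The means were 10.81 ± 0.0508 at 48 h, 10.71 ± 0.0507 at 72 h and 9.77 ± 0.376 in control (SD, n = 3 each). Lyz2 was higher by 1.04 at 48 h (SE 0.164, 2.05-fold, adjusted p = 0.0215, limma) and by 0.94 at 72 h (SE 0.164, 1.92-fold, adjusted p = 0.0293, limma), and the 2 times differed by -0.10 (95% interval from -0.47 to 0.28).

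The spread of Lyz2 among the controls bore on its calls. Without control replicate 3 the adjusted p was 0.000884 at 48 h and 0.00445 at 72 h, with differences of 1.25 and 1.15. At 48 h the call was lost without control replicate 1 (adjusted p = 0.0941) or 2 (0.0662) and without Dox 48 h replicate 1 (0.084), 2 (0.0857) or 3 (0.0753). The 72 h call was lost without control replicate 1 (0.113) or 2 (0.0804), without Dox 48 h replicate 2 (0.0574) or 3 (0.0546) and without Dox 72 h replicate 1 (0.0616), 2 (0.0858) or 3 (0.0849). The difference itself stayed between 0.90 and 1.25 at 48 h and between 0.80 and 1.15 at 72 h. Lyz1, the closely related lysozyme of Paneth cells, had a mean log2 signal of 3.54, below the median of all probe sets, and differences of 0.35 and 0.33 (adjusted p = 0.643 and 0.455). Probes of either gene may bind both transcripts, which makes a share of Lyz1 in the Lyz2 signal uncertain.

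Among 11 lysozyme and lysosomal genes of macrophages other than Lyz2, 3 rose at 48 h and 2 at 72 h, and 0 fell. Ctss, a cysteine protease of antigen-presenting cells, had log2 signals of 9.95, 9.85 and 9.60 after 48 h of Dox, against 8.68, 8.73 and 8.75 in control. After 72 h they were 9.71, 9.84 and 10.17. It rose by 1.08 at 48 h (adjusted p = 0.00763, limma) and by 1.19 at 72 h (adjusted p = 0.00612). Psap, the precursor of the saposins that help digest sphingolipids, rose by 0.48 and 0.54 (adjusted p = 0.0156 and 0.01), and Cd68, a lysosomal membrane glycoprotein of macrophages, rose by 0.59 at 48 h (adjusted p = 0.0254) and had 0.23 at 72 h (adjusted p = 0.281). The 48 h call of Psap was lost without control replicate 1 (adjusted p = 0.067) or 3 (0.0539) or a single Dox 48 h array (0.0527 to 0.0689), and that of Cd68 without control replicate 1 (0.0996) or 2 (0.105), a single Dox 48 h array (0.073 to 0.0898) or Dox 72 h replicate 2 (0.0543). The cathepsins Ctsb, Ctsd and Ctsl and the membrane proteins Lamp1 and Lamp2 had differences between -0.27 and 0.25, none past the threshold. The list had a median of 0.25 at 48 h and 0.12 at 72 h.

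Mpeg1 (chr19:12460770-12465285, plus strand) encodes perforin-2, a pore-forming protein that macrophages turn against engulfed bacteria. Its log2 signal was 9.63, 9.54 and 9.09 after 48 h of Dox, against 7.97, 8.54 and 8.75 in control. After 72 h it was 9.88, 10.26 and 9.95. The 3 groups did not overlap, with control lowest and 72 h highest, although control replicate 3 and Dox 48 h replicate 3 lay close to each other. The means were 9.42 ± 0.29 at 48 h, 10.03 ± 0.202 at 72 h and 8.42 ± 0.405 in control (SD, n = 3 each). The difference from control was 1.61 at 72 h (SE 0.223, 3.05-fold, adjusted p = 0.0135, limma), the biggest among the members, and 0.99 at 48 h (SE 0.223, 1.99-fold), which missed the threshold (adjusted p = 0.0885). The 72 h call held whichever single array was left out, with adjusted p from 0.02 to 0.0478. Between 72 h and 48 h the difference was 0.61 (95% interval from 0.10 to 1.13, unadjusted), which was not past the threshold after adjustment (adjusted p = 0.335).

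Of 8 other genes of pore-forming immune proteins, Prf1, the complement genes C6, C7, C8a, C8b and C9 and the gasdermins Gsdmd and Gsdme, 5 had a mean below the median of all probe sets and 0 were called by limma in any comparison (1 had an unadjusted p below 0.05 at 48 h and 1 at 72 h). Gsdmd, whose protein opens the membrane in pyroptosis, had differences of 0.23 at 48 h and 0.19 at 72 h (adjusted p = 0.443 and 0.351). C6 had -0.17 and -0.42 (adjusted p = 0.829 and 0.262), and C7 had 0.15 and -0.02 (adjusted p = 0.603 and 0.925).

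Cd14 (chr18:36725064-36726815) encodes the surface protein that hands bacterial lipopolysaccharide (LPS) to the Tlr4 receptor and is a classical label of monocytes. Its log2 signal was 8.22, 8.24 and 8.31 after 48 h of Dox, against 7.53, 7.34 and 7.45 in control. After 72 h it was 7.12, 7.56 and 7.21. The 48 h arrays stood above all others and close together, whereas the 72 h arrays lay on both sides of the controls. Means were 8.26 ± 0.0494 at 48 h, 7.30 ± 0.235 at 72 h and 7.44 ± 0.0929 in control (SD, n = 3 each). Cd14 was higher by 0.82 at 48 h (SE 0.117, 1.76-fold, adjusted p = 0.0138, limma) and differed from control by -0.14 at 72 h (95% interval from -0.41 to 0.12, adjusted p = 0.589, from -0.28 to -0.06 with single arrays left out). Set directly against 48 h, the 72 h value was lower by 1.95-fold (difference -0.96, SE 0.117, adjusted p = 0.0272, limma).

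The calls of Cd14 were lost in part when single arrays were left out. The 48 h call held in 4 of 9 such fits, without control replicate 1 or any one array at 72 h, and was lost without control replicate 2 (adjusted p = 0.0648) or 3 (0.0527) and without Dox 48 h replicate 1 (0.0503), 2 (0.0606) or 3 (0.065), while the difference stayed between 0.77 and 0.86. The call between 72 h and 48 h held in 1 of 9, the one without Dox 72 h replicate 2 (0.0111), and was lost without control replicate 1 (0.0586), 2 (0.0558) or 3 (0.0553), Dox 48 h replicate 1 (0.0596), 2 (0.119) or 3 (0.112) and Dox 72 h replicate 1 (0.0798) or 3 (0.107). In those fits its difference ran from -1.09 to -0.87.

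In the LPS receptor complex and its neighbours, 9 measured genes beside Cd14, 2 rose at 48 h, and 3 rose and 1 fell at 72 h. Ticam2, the adaptor that links internalised Tlr4 to interferon signalling, had log2 signals of 5.92, 5.53 and 6.11 after 48 h of Dox, against 4.41, 4.22 and 4.22 in control. After 72 h they were 5.57, 5.67 and 5.87. Its differences were 1.57 (adjusted p = 0.00262, limma) and 1.42 (adjusted p = 0.00528). Cd180, a Tlr4-like receptor, rose by 1.17 and 0.93 (adjusted p = 0.00222 and 0.00773), and Ly86, the partner protein of Cd180, had 0.43 at 48 h (adjusted p = 0.205) and rose by 0.79 at 72 h (adjusted p = 0.0207). Lbp, the serum protein that carries LPS to Cd14, fell by 0.58 at 72 h (adjusted p = 0.0116). The call of Ly86 was lost without control replicate 1 (adjusted p = 0.0903), 2 (0.0618) or 3 (0.0583). Tlr4 itself had -0.36 at 48 h and -0.93 at 72 h (adjusted p = 0.627 and 0.054), and Ly96, its co-receptor MD-2, had 0.96 and 0.95 (adjusted p = 0.0711 and 0.054). On Dox 72 h replicate 3 Tlr4 was lowest, at 4.47, against 5.20 and 5.33 on the other two arrays of that group. The adaptors Myd88, Ticam1 and Tirap had differences between -0.15 and 0.36, none past the threshold.

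Cybb (gene at chrX:9435252-9487766, minus strand) encodes gp91phox, the membrane subunit through which the phagocyte NADPH oxidase makes superoxide. Its log2 signal was 11.37, 11.44 and 11.34 after 48 h of Dox, against 10.54, 10.68 and 10.61 in control. After 72 h it was 10.77, 11.03 and 10.62. The 48 h arrays lay above all others, and Dox 72 h replicate 3 fell within the control range. Means were 11.39 ± 0.0526 at 48 h, 10.81 ± 0.203 at 72 h and 10.61 ± 0.0702 in control (SD, n = 3 each). Cybb rose by 0.77 at 48 h (SE 0.104, 1.71-fold, adjusted p = 0.0106, limma), and its difference from control at 72 h was 0.20 (95% interval from -0.04 to 0.43, adjusted p = 0.394, from 0.09 to 0.29 with single arrays left out). Between 72 h and 48 h the difference of -0.58 missed the threshold (adjusted p = 0.0861), so that the 2 times are not shown to differ for Cybb. The 48 h call was lost without control replicate 1 (adjusted p = 0.0535) or without Dox 48 h replicate 2 (0.0568).

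Of 7 measured partners of Cybb in the oxidase, 1 fell at 48 h and 1 rose at 72 h, while 3 and 4 had an unadjusted p below 0.05. Whether Cybb differs from them was not tested. Hvcn1, the proton channel that balances the charge the oxidase moves, fell by 0.70 at 48 h (adjusted p = 0.0215, limma), with log2 signals of 7.15, 6.96 and 6.89 after 48 h of Dox, against 7.59, 7.65 and 7.87 in control. At 72 h its difference was -0.18 (adjusted p = 0.452). Cybc1, which helps the Cybb protein mature, rose by 0.66 at 72 h (adjusted p = 0.0147) and had 0.37 at 48 h (adjusted p = 0.137). The call of Hvcn1 was lost without control replicate 1 (adjusted p = 0.0532), 2 (0.0719) or 3 (0.0648) or Dox 48 h replicate 2 (0.0898) or 3 (0.0865), and that of Cybc1 without control replicate 1 (0.0701) or 2 (0.0556). Cyba, the p22phox chain that pairs with Cybb in the membrane, had 0.25 at both times (adjusted p = 0.239 and 0.148), and the cytosolic subunits Ncf1 and Ncf4 and the GTPases Rac1 and Rac2 had differences between -0.21 and 0.05.

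**Figure D2:**
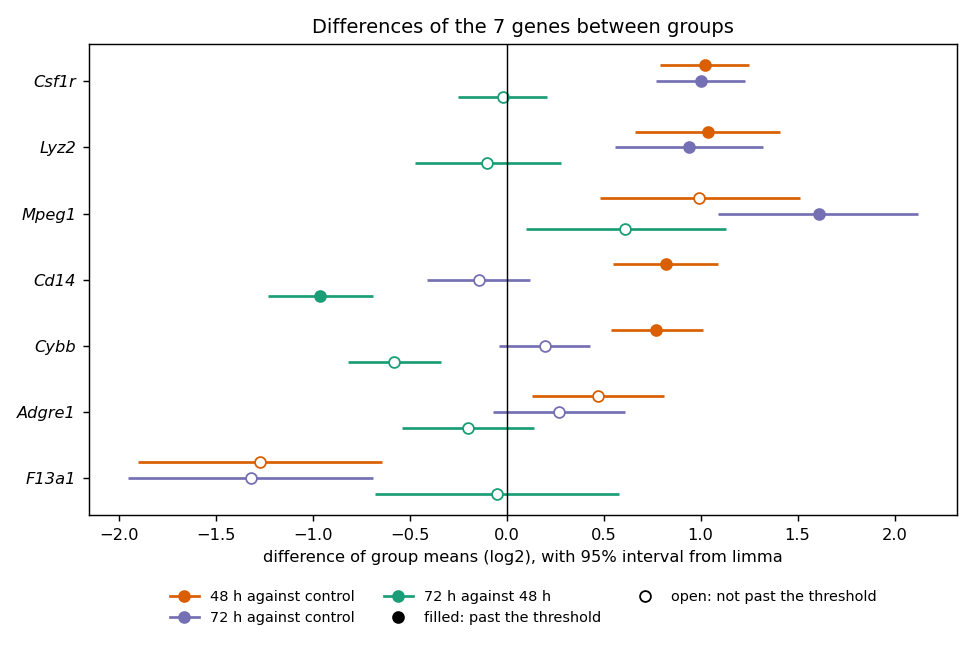
Difference of group means on the log2 scale (horizontal axis) for the 7 genes in 3 comparisons, with the 95% interval of limma before adjustment for the number of probe sets. Filled points were past the threshold of 0.05 after adjustment and open points were not. Csf1r and Lyz2 lie near 1 at both times, Mpeg1 is farthest right at 72 h (1.61), and Cd14 between 72 h and 48 h (-0.96) is the one filled point left of 0.

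Adgre1 (chr17:57358581-57483529) encodes F4/80, an adhesion G protein-coupled receptor and the usual surface label of mouse macrophages. Its log2 signal was 7.02, 6.86 and 6.85 after 48 h of Dox, against 6.15, 6.47 and 6.71 in control. After 72 h it was 6.68, 6.56 and 6.90. The 48 h arrays lay above the controls by a narrow margin, and the 72 h arrays overlapped with both groups. The difference from control was 0.47 at 48 h (95% interval from 0.13 to 0.81, adjusted p = 0.267, limma) and 0.27 at 72 h (95% interval from -0.07 to 0.61, adjusted p = 0.412, from 0.12 to 0.40 with single arrays left out). Means were 6.91 ± 0.097, 6.72 ± 0.173 and 6.45 ± 0.28 at 48 h, at 72 h and in control (SD, n = 3 each). In the 9 fits that each left out 1 array, Adgre1 passed in 0, with differences at 48 h from 0.32 to 0.60.

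Of 5 other adhesion G protein-coupled receptors measured, 1 fell at 48 h and 0 rose. Adgrg3, a receptor of granulocytes, had log2 signals of 9.25, 9.45 and 9.39 after 48 h of Dox, against 9.99, 10 and 9.93 in control, and fell by 0.61 (adjusted p = 0.00812, limma). At 72 h its difference was -0.33 (adjusted p = 0.0726). Adgrg1 had -0.21 at 48 h and 0.73 at 72 h (adjusted p = 0.856 and 0.16), and Adgrb1, which binds phosphatidylserine on dying cells, had -0.14 and 0.18 (adjusted p = 0.812 and 0.507).

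F13a1 (chr13:36867178-37050244, minus strand) encodes the A chain of coagulation factor XIII, a transglutaminase that cross-links fibrin and is made by monocytes, some macrophages and platelets. Its log2 signal was 8.41, 9.04 and 8.77 after 48 h of Dox, against 9.95, 10.07 and 10.02 in control. After 72 h it was 8.48, 8.24 and 9.36. All 6 Dox arrays lay below the 3 controls, which were close together, and the Dox arrays were spread. The means were 8.74 ± 0.316 at 48 h, 8.69 ± 0.586 at 72 h and 10.01 ± 0.0628 in control (SD, n = 3 each). The difference was -1.27 at 48 h (SE 0.275, 2.41-fold lower, adjusted p = 0.0783, limma) and -1.32 at 72 h (SE 0.275, 2.49-fold lower, adjusted p = 0.0509), so F13a1 alone among the members had lower means than control at both times, and both comparisons missed the threshold. Without Dox 72 h replicate 3, the array with the highest F13a1 of its group, both passed it, with adjusted p of 0.013 at 48 h and 0.014 at 72 h and a 72 h difference of -1.65.

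Platelet markers stood apart on the same array, and F13a1 is a platelet gene too. The summed linear signal of the 4 measured platelet markers was 704 on Dox 72 h replicate 3, 183 and 198 on the other two arrays at 72 h and between 126 and 140 at 48 h, against 137, 147 and 333 in control. Markers of T cells summed to 204 there, against 51 to 86 on the other 8 arrays. Sums of B cell (613 against 273 to 411) and NK cell markers (107 against 50 to 66) were also highest on this array. So were those of dendritic cell markers (1057 against 516 to 709) and of the 1 measured erythroid marker (51 against 11 to 17). F13a1 on control replicate 3, which had the second highest platelet sum, was 10.02 and lay between the other two controls. The part of platelet RNA in the F13a1 values was not tested.

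Of 10 other measured genes of transglutaminases and blood clotting, 2 rose at 48 h, while 1 rose and 1 fell at 72 h. Thbd, the thrombomodulin that turns thrombin towards protein C, had log2 signals of 7.73, 7.68 and 7.79 after 48 h of Dox, against 6.83, 6.97 and 6.58 in control. After 72 h they were 7.61, 7.79 and 7.79. It rose by 0.94 at both times (adjusted p = 0.00537 and 0.0065, limma). Plaur, the urokinase receptor, rose by 0.54 at 48 h (adjusted p = 0.0205) and had -0.02 at 72 h (adjusted p = 0.946), and Tgm1, a transglutaminase of skin, fell by 0.56 at 72 h (adjusted p = 0.0361). The Plaur call was lost without any 1 of the controls (adjusted p up to 0.0787) or without Dox 48 h replicate 2 (0.0774) or 3 (0.0591), and the Tgm1 call was lost without any 1 array other than control replicate 3 (up to 0.128). F13b, the carrier chain of factor XIII made in liver, had 0.05 at both times. Tgm2, the tissue transglutaminase of macrophages, had 0.83 and 0.94 (adjusted p = 0.152 and 0.0686).

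A further 21 monocyte and macrophage genes were set beside the members; 3 rose at 48 h, 4 rose at 72 h and 0 fell against control. Cd36, a scavenger receptor for lipids and dying cells, had log2 signals of 6.32, 6.46 and 6.79 after 48 h of Dox, against 3.01, 3.37 and 3.15 in control. After 72 h they were 5.12, 5.21 and 5.30. Its 3 groups were far apart, with differences from control of 3.35 (adjusted p = 2.47e-05, limma) and 2.03 (adjusted p = 0.000876), and a lower level at 72 h than at 48 h (difference -1.31, adjusted p = 0.0185). Ccr2, the chemokine receptor by which monocytes leave the marrow, rose by 1.0 and 0.84 (adjusted p = 0.000819 and 0.00296). Clec7a, the beta-glucan receptor Dectin-1, rose by 0.62 and 1.20 (adjusted p = 0.0276 and 0.00263), and Ly6c2, a surface protein of inflammatory monocytes, had 0.50 at 48 h (adjusted p = 0.136) and rose by 0.72 at 72 h (adjusted p = 0.03). When arrays were left out in turn, the call of Cd36 between the times was lost without Dox 48 h replicate 2 (adjusted p = 0.0772) or a single Dox 72 h array (0.0652 to 0.0798), that of Ly6c2 held without control replicate 3 or Dox 48 h replicate 1 and was lost otherwise (up to 0.0926), and that of Clec7a at 48 h held without control replicate 3 or Dox 72 h replicate 3 and was lost otherwise (up to 0.101). The integrin Itgam, the alpha chain of Mac-1, had 0.63 at 48 h and -0.06 at 72 h (adjusted p = 0.0704 and 0.871), and the mannose receptor Mrc1 had -0.07 and -0.45 (adjusted p = 0.974 and 0.473). The median of the list was 0.31 at 48 h and 0.25 at 72 h.

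**Figure D3:**
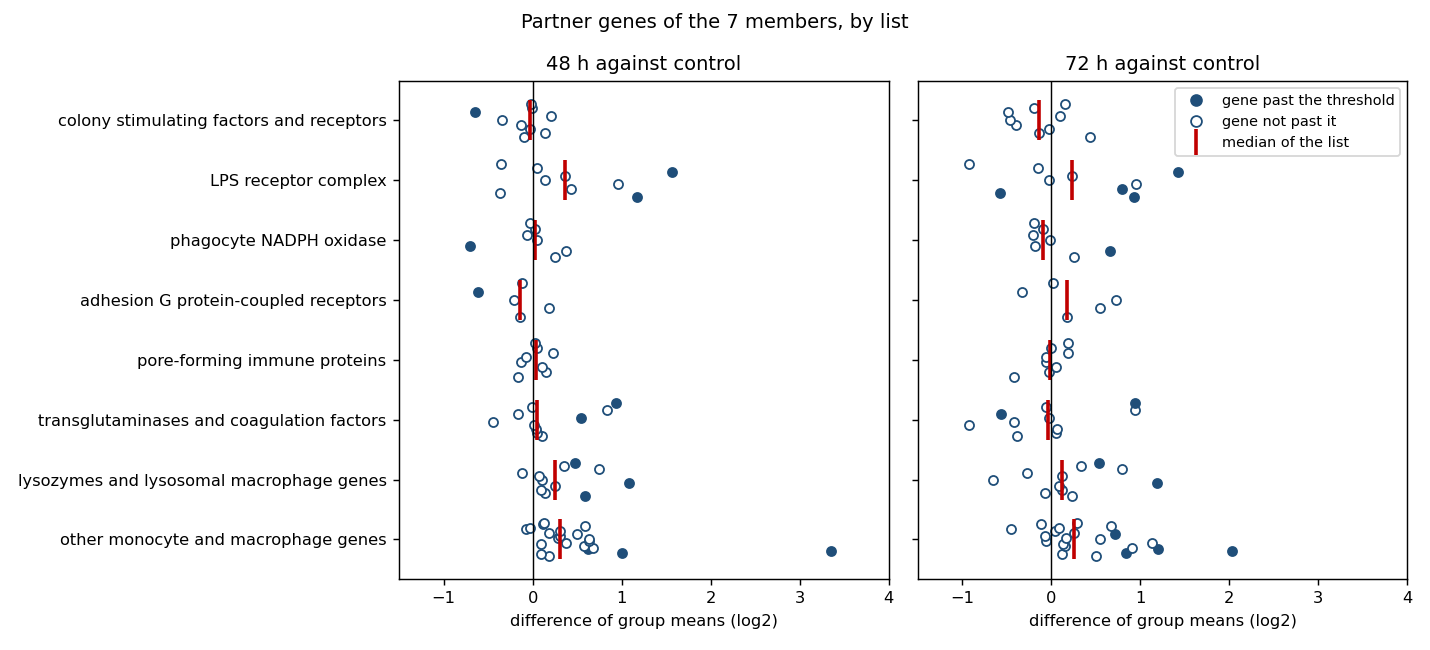
Log2 difference from control (horizontal axis) of the partner genes, at 48 h on the left and at 72 h on the right, 1 row per list. Each point is a gene, filled where past the threshold, and red bars are list medians. Most genes lie within 1 of 0, and Cd36, in the lowest row, is farthest right at both times (3.35 and 2.03).

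For each member that passed the threshold in a comparison, the 3 genes with the most similar course over the 9 arrays were found among 11318 other genes of at least median signal, by the root mean square distance of the log2 values after each gene was centred on its own mean. Cebpg, a C/EBP family factor, Rhoq, a small GTPase, and Ms4a6c, a membrane protein of myeloid cells, were nearest to Csf1r, at distances of 0.099, 0.104 and 0.106. Nearest to Lyz2 were Cebpg again (0.148), the calpain Capn5 (0.153) and Ly96 (0.154). Myo1e, a class I myosin, Camsap2, which binds microtubule ends, and Clec4e, the Mincle receptor of macrophages, were nearest to Cd14 (0.128, 0.133 and 0.138). Cybb was closest to Cytip (0.087), Dhrs7 (0.0888) and Nadk, the kinase that makes NADP (0.0943). Mpeg1 was closest to Ifitm3 (0.171), the immunoproteasome subunit Psmb10 (0.19) and Calhm6 (0.212). Distances describe these 9 arrays, and no test was attached to them.

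The members were read beside markers of blood and spleen cell types, of neutrophil precursors and of stem and progenitor cells. The leukemia cells have a granulocyte-monocyte character and may express genes of these lists themselves. From which cells the signals came was not tested. Of 6 neutrophil precursor markers 5 fell at 48 h and 4 at 72 h, and their summed linear signal was 12202 to 13134 at 48 h and 13843 to 14765 at 72 h, against 19127 to 21498 in control. Among 8 neutrophil markers Ly6g rose at 48 h (1.19, adjusted p = 0.00785, limma) and S100a9 fell at 72 h (-0.81, adjusted p = 0.0141). The median of this list was -0.40 at 48 h and -0.21 at 72 h. Its summed signal was 3525 to 4221 at 48 h and 3118 to 4042 at 72 h, against 4886 to 6022 in control. In the stem and progenitor list only Kit was called, lower at 48 h (-1.36, adjusted p = 0.00261). Its member Cd34 had 1.28 at 72 h (adjusted p = 0.099). Cd79b, 1 of 4 measured B cell markers, rose at 72 h (0.68, adjusted p = 0.0329). These calls were not followed through the other fits. Lists of dendritic, T, NK, erythroid and platelet cells gave 0 calls. Of the 5 measured classical monocyte markers 2 rose at 48 h, and at 72 h 3 rose and 1 fell. Their sums, in which Ly6c2 has the highest signal, were 6854 to 7084 at 48 h and 6207 to 7228 at 72 h, against 3989 to 5230 in control. Ccr2 and the calcium-binding protein S100a4 (1.32 and 0.76, adjusted p = 0.00119 and 0.0149, limma) rose at both times, Vcan was dim, and Fn1, the fibronectin gene, had 1.02 at 48 h (adjusted p = 0.0746) and fell by 1.60 at 72 h (adjusted p = 0.0122); S100a4 and Fn1 were singled out after their values were seen. The 72 h call of S100a4 was lost without control replicate 1 (0.0581) or 2 (0.0552) or Dox 72 h replicate 3 (0.052), and that of Fn1 without control replicate 1 (0.0609). The 13 markers of red pulp macrophages, the resident macrophages of spleen, gave 0 calls by limma in any comparison (2 had an unadjusted p below 0.05 at 48 h and 4 at 72 h), with sums of 831 to 964 at 48 h and 578 to 1231 at 72 h, against 665 to 1382 in control. Of these 13, Timd4 and Siglec1 had means below the median of all probe sets, and the other 11, among them Spic, the factor that red pulp macrophages need, and Vcam1, had means above it. The highest sums of this list were on control replicate 3 (1382) and Dox 72 h replicate 3 (1231), the arrays where Adgre1 was highest within its group (6.71 and 6.90). Lyz2 and Mpeg1 were also highest among controls on control replicate 3. The part of spleen macrophage RNA in these values was not tested. With both arrays left out, a fit added after these sums were seen, Csf1r kept its calls (adjusted p = 0.016 and 0.0352, limma), as did Cybb at 48 h (0.0346) and Lyz2 (0.00353 and 0.0198). Cd14 lost its call at 48 h (0.0738) and that between the times (0.172), Mpeg1 lost its call at 72 h (0.0548, with a difference of 1.81), and F13a1 passed at 72 h (0.0416). In that fit 3 of 7 members were called higher at 48 h, and 2 higher and 1 lower at 72 h, beside 312 higher and 109 lower of all 41345 probe sets at 48 h and 171 and 128 at 72 h. Among the partner genes, 9 calls were lost there, with adjusted p from 0.0527 to 0.111, namely Csf3r, Hvcn1 and Plaur at 48 h, Lbp, Ticam2, Ly86, Cybc1 and Psap at 72 h and Cd36 between the times.

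**Figure D4:**
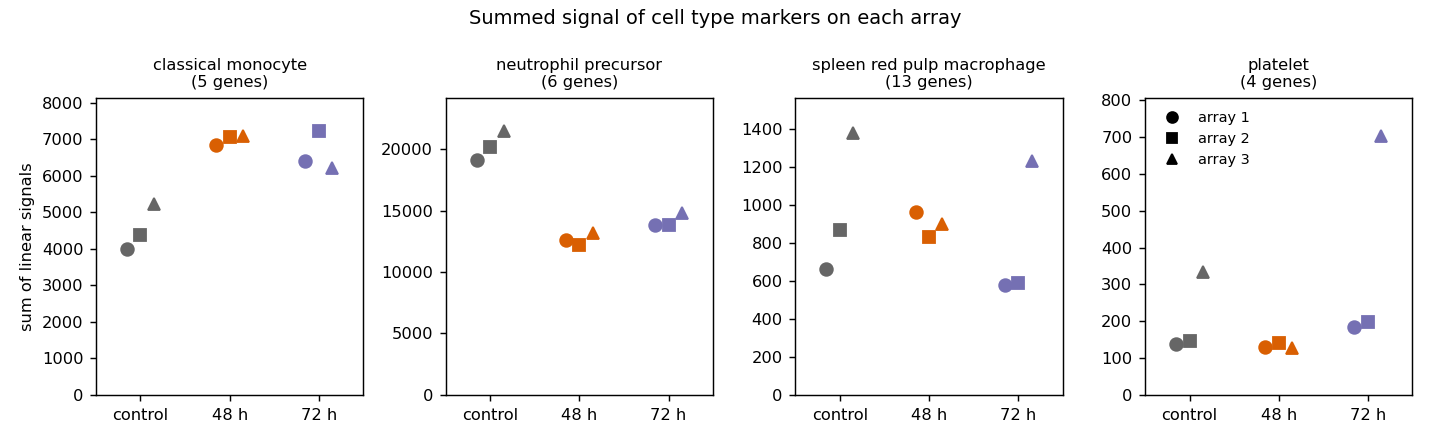
Summed linear signal (vertical axis, from 0) of the measured markers of 4 cell types on each of the 9 arrays, by group. Points are arrays. Neutrophil precursor sums are lower and classical monocyte sums higher on all Dox arrays than on all control arrays, and array 3 of the Dox 72 h group has the highest platelet sum, 704.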

How the data were processed

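RNA of 9 samples was measured on 9 arrays. The authors deposited log2 expression values per probe set, normalized between arrays. Their methods name the oligo package with RMA (background correction, quantile normalization, median polish), and MAS5 stands in the submitters' processing notes. Array medians from 3.71 to 3.869 on a log2 scale are the form RMA gives, and background correction can shrink differences of dim genes. Scanner files were not analysed here. The values were used as deposited, and no 2 arrays were identical. Linear models with a mean per group were fitted over all 41345 probe sets with limma 3.58.1 in R 4.3.3 (empirical Bayes, Benjamini-Hochberg, threshold 0.05), after a check on simulated data. Precision is limited by having 3 arrays in each group. Alternatives were quantile normalization, median centring, removal of dim probe sets (mean below 3.808), a variance trend, a replicate block, fits of 2 groups, each array left out and, added after seeing the data, 2 arrays left out together. Named were the 7 members, list genes past the threshold (at least 3 a list), the 3 closest courses and Klf4. The members and lists were chosen with earlier results of these data known. Each member's symbol was matched to RefSeq (GRCm38.p6).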

Additional observations from a re-analysis of the deposited data

Results flagged for a closer look

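For 4 named genes the response differed between the time points by a direct test of 72 h against 48 h. Cd14 was lower at 72 h by 0.96 on the log2 scale (difference -0.96, adjusted p = 0.0272, limma), with all 3 arrays at 72 h below all 3 arrays at 48 h. This call held in only 1 of the 9 fits that left out 1 array (adjusted p up to 0.119). Cd36 differed in the same direction (difference -1.31, adjusted p = 0.0185, limma), again with no overlap between the arrays of the 2 times, and stayed above control at 72 h. The call of Cd36 held in 5 of those 9 fits (adjusted p up to 0.0798). Klf4 was likewise lower at 72 h than at 48 h (difference -1.05, adjusted p = 0.028, limma), a call that held without control replicate 2 or 3 and was lost without any other single array (adjusted p up to 0.135). Fn1, fibronectin, had the widest gap of these genes (difference -2.62, adjusted p = 0.00649, limma) and passed in all 9 fits that left out 1 array. It was singled out after its values were seen. Its call was lost with a replicate block (adjusted p = 0.0508, limma) and with only the 2 groups in the fit (0.0511). It was also lost without both control replicate 3 and Dox 72 h replicate 3 (0.0883).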

How the results depend on the processing

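Quantile normalization changed no call of a member, and median centring turned the sign of 2 differences between 72 h and 48 h that were near 0, Csf1r to 0.03 and F13a1 to 0.01. With dim probe sets removed, F13a1 passed the threshold at both times (-1.27 and -1.32, adjusted p = 0.0469 and 0.0302). So 1 member was called lower at each time, beside 251 and 797 of 20673 probe sets. With a prior variance trend F13a1 passed at 72 h (-1.32, adjusted p = 0.0464), 1 member lower beside 597 of 41345 probe sets. With only the 2 groups of a comparison in the fit, F13a1 passed at 48 h (-1.27, adjusted p = 0.0371), 1 member lower beside 113 of 41345 probe sets. Lyz2 lost its calls (1.04 and 0.94, adjusted p = 0.0879 and 0.0957). Cd14 between the times lost its own (-0.96, adjusted p = 0.126), which left 0 members called beside 2 probe sets higher and 17 lower.

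The labels number the replicates alike in each group. Same-numbered arrays deviated from their group means with correlations from -0.407 to 0.277, and differently numbered arrays with -0.241 to 0.372. These values show no sign of pairing by number, but with 3 arrays per group they cannot exclude it. A replicate block left 2 members called at 48 h, where 254 of 41345 probe sets were called higher and 73 lower, 1 at 72 h (133 and 125), 0 between the times (0 and 11) and 2 over all 3 groups. For the counts over all 3 groups, here and below, the share of all probe sets is not given. Whether they fell more than that share cannot be read from them. Under the replicate block Cd14 (0.82, adjusted p = 0.0631; between the times -0.96, adjusted p = 0.123), Mpeg1 at 72 h (1.61, adjusted p = 0.0516) and Lyz2 (1.04 and 0.94, adjusted p = 0.0663 and 0.0753) missed the threshold.

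With each array left out in turn, members called at 48 h numbered 1 to 5 (1 to 4 higher and 0 to 1 lower, beside 220 to 496 higher and 69 to 220 lower of 41345 probe sets), lower at 72 h 0 to 1 (138 to 476 probe sets), lower between the times 0 to 1 (all called, 0 to 1; 13 to 60 probe sets lower) and over all 3 groups 2 to 4. Differences ran for Csf1r between the times from -0.10 to 0.04, Cd14 at 48 h from 0.77 to 0.86 and between the times from -1.09 to -0.87, Cybb at 48 h from 0.74 to 0.81, F13a1 from -1.42 to -1.11 at 48 h, -1.65 to -1.09 at 72 h and -0.38 to 0.18 between the times, and Lyz2 from 0.90 to 1.25 and from 0.80 to 1.15. Without both control replicate 3 and Dox 72 h replicate 3, Cd14 (0.82 and, between the times, -0.92) and Mpeg1 at 72 h (1.81) missed the threshold, and F13a1 passed at 72 h (-1.65). In that fit 1 member was lower at 72 h, beside 128 of 41345 probe sets. Between the times 0 members were called, beside 0 probe sets higher and 10 lower, and over all 3 groups 2 members. For partner genes, median centring ended the 48 h calls of Csf3r (adjusted p = 0.0532) and Hvcn1 (0.051). Fits of 2 groups ended 10 partner calls, those of Csf3r, Hvcn1, Plaur, Cd68 and Clec7a at 48 h, Lbp, Ly86, Ly6c2 and Tgm1 at 72 h and Cd36 between the times, with adjusted p from 0.0511 to 0.106. The replicate block ended the same 10 (0.0508 to 0.0898) and those of Psap at 48 h (0.0549) and Cybc1 at 72 h (0.067). Of the calls of Fn1, S100a4 and Klf4, the block ended Fn1 (0.0572 at 72 h, 0.0508 between the times), S100a4 at 72 h (0.059) and Klf4 between the times (0.0615), and fits of 2 groups ended Fn1 between the times (0.0511). Without the 2 arrays rich in spleen markers, Fn1 (0.0966 and 0.0883), S100a4 at 72 h (0.114) and Klf4 between the times (0.12) missed it too. Other probe sets of a member were not tried, since each has 1, and the F test was not run with 2 groups.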
